A study of Vitis vinifera with 36 samples.

Results

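A set of 3 gene models was read in every berry library of the grape cultivar Muscat Superior and almost never in Victoria: VIT_200s0346g00050, VIT_214s0036g00080 and VIT_214s0066g00170. They were chosen by a rule on FPKM (reads scaled for transcript length and library size): at least 2 in all 18 Muscat Superior libraries and at most 0.2 in all 18 Victoria libraries, with genes that have no line in a table set to 0. The rule found 3 of the 28119 gene identifiers listed in any library. Because the rule uses the levels in both cultivars, the difference between cultivars is described here and not tested.

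The berries were deseeded, so the RNA comes from the whole pericarp, and 50 berries were taken per biological replicate. All vines were 7 years old in 2014, stood under rain shelters in southern China on a rootstock of unknown type, and were forced with hydrogen cyanamide to carry 2 crops a year. The 6 Muscat Superior groups were the winter crop at stages E-L 35, 36 and 38 and the summer crop at the same stages, and the 6 Victoria groups had the same crops and stages, with 3 replicates in each of the 12 groups. E-L is the modified Eichhorn-Lorenz scale of grapevine growth: 35 is the onset of veraison, when berries soften, 36 is intermediate sugar and 38 is harvest ripeness. Crop, season and sampling date cannot be told apart here, and no batch is labelled. They do not say whether replicates came from separate vines, so p-values measure only the spread between these samples. Library totals ran from 8607368 to 14008346 expected counts in Muscat Superior and from 5624449 to 18606068 in Victoria. Over 17390 other genes, each of the 36 libraries was closest, outside its own group, to a library of its own cultivar. The libraries thus grouped by cultivar label in genes the rule did not use, though this cannot show which set is which cultivar. Of the 18 replicate pairs in Muscat Superior, 4 were near-identical (a chi-square of their counts below 2 for each degree of freedom), all in the winter crop, 3 of them at E-L 35. Those 3 are all the pairs of winter E-L 35, and the remaining pair is replicates 1 and 2 of winter E-L 36. Whether the replicates of these groups are independent was not tested.

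Grape cultivars are propagated as cuttings, so each is 1 genotype kept over many vines. Cultivars differ in sequence and in gene content, and RNA reads of any cultivar are assigned to the gene models of a reference. A gene model can then be close to unread in a cultivar that lacks the gene, carries a diverged copy or does not transcribe it. Expression tables of this kind cannot tell these apart, and none of them was tested. The identifiers are not paired with gene names in the files, and 0 of the 28119 matched the supplied gene table, so no name or function is given. Berry tissue markers could not be checked for the same reason.

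VIT_200s0346g00050 was the one gene of the 3 with an expected count of 0 in every Victoria library. The rule all but fixes this for a transcript of 147 bases. In replicate 1 of summer Muscat Superior at E-L 38, 9.78 counts gave 8.47 FPKM. A ceiling of 0.2 FPKM thus leaves room for less than a single count, so the 0 does not set this gene apart. VIT_200s0346g00050 summed to 412 expected counts over the Muscat Superior libraries and 0 over the Victoria libraries. With 3 counts over the 18 Victoria libraries standing in for the 0, it was at least 131-fold higher in Muscat Superior, a limit that covers counting error only. VIT_214s0036g00080 summed to 1240 counts in Muscat Superior and 5.13 in Victoria, 231 times as much after scaling to library totals. VIT_214s0066g00170 summed to 2323 counts in Muscat Superior and 7 in Victoria, 318 times as much after the same scaling. In these pericarp samples, fewer cells of a type and less RNA per cell cannot be told apart.

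**Figure D1:**
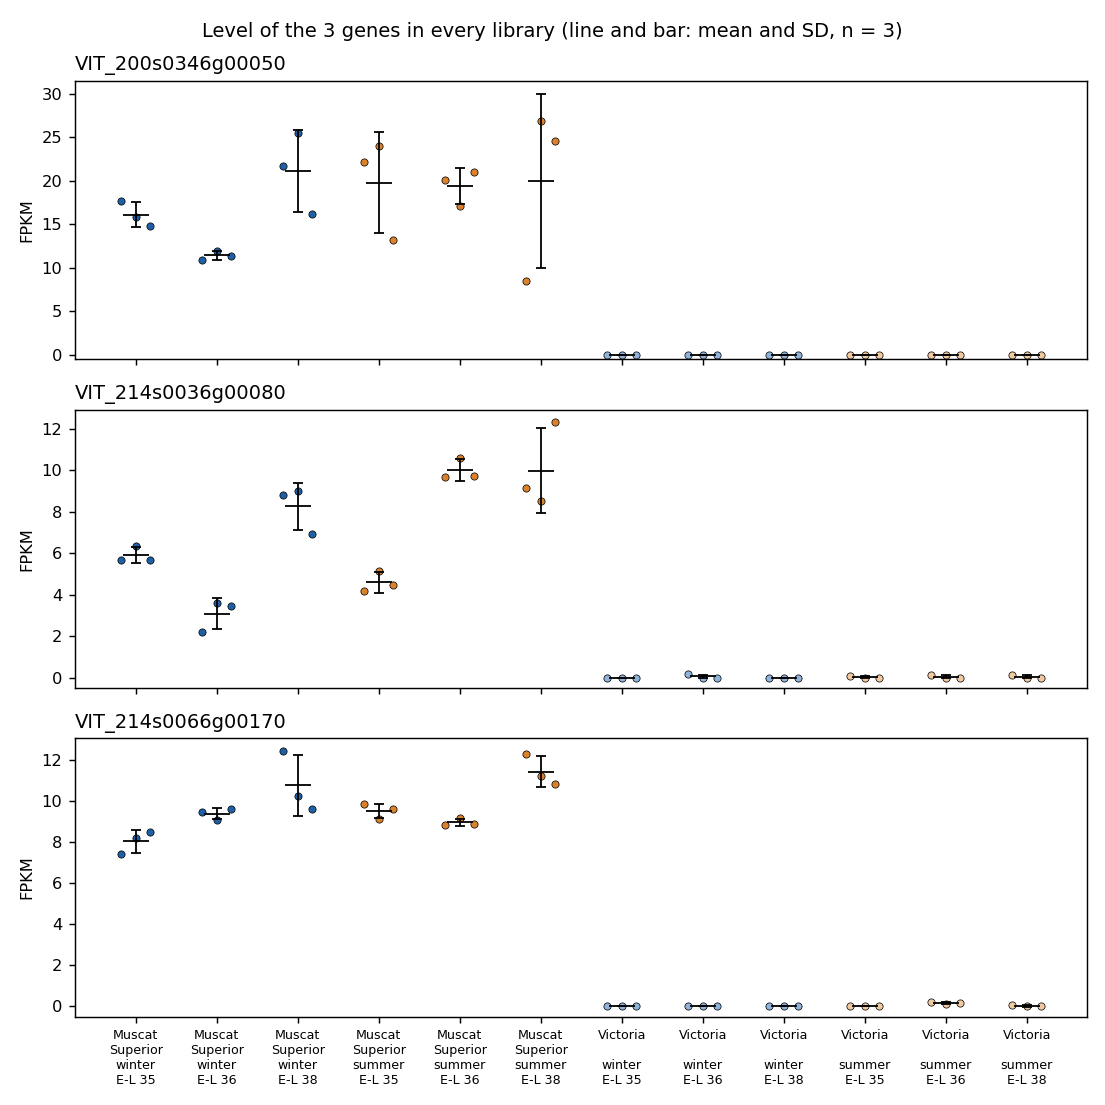
FPKM (vertical axes) of the 3 genes in each of the 36 libraries, by group; points are libraries, the line and bar are the group mean and SD (n = 3). The Muscat Superior libraries lie at 2.21 FPKM or more in all 3 panels, and the Victoria libraries at 0.2 or less.

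The few Victoria reads were spread unevenly over libraries. For VIT_214s0036g00080, 4 Victoria libraries listed reads: 1.51 counts in winter E-L 36, and 1.04, 1.46 and 1.12 counts in summer E-L 35, 36 and 38, each in replicate 1 of its group. For VIT_214s0066g00170, the 4 libraries were all of the summer crop, with 3, 1 and 2 counts in the 3 replicates of E-L 36 and 1 count in replicate 1 of E-L 38. None of the 9 winter Victoria libraries listed a read of VIT_214s0066g00170. A single library's floor of 3 counts is 0.161 to 0.533 CPM (counts scaled to the library total), so levels of this size cannot be ordered among Victoria groups.

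The rule has sharp edges. Just inside the floor, the lowest Muscat Superior libraries of VIT_214s0036g00080 and VIT_214s0066g00170 had 2.21 and 7.42 FPKM. Just outside it, VIT_212s0034g02450 reached 1.61 and VIT_213s0074g00170 reached 1.42 FPKM in their lowest Muscat Superior library, with VIT_212s0034g02450 below 2 FPKM in 1 library only. Just inside the ceiling, VIT_214s0066g00170 and VIT_214s0036g00080 had 0.2 and 0.15 FPKM in their highest Victoria library. Just outside it, VIT_200s0279g00030 had 0.23 and VIT_203s0097g00140 had 0.38.

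**Figure D2:**
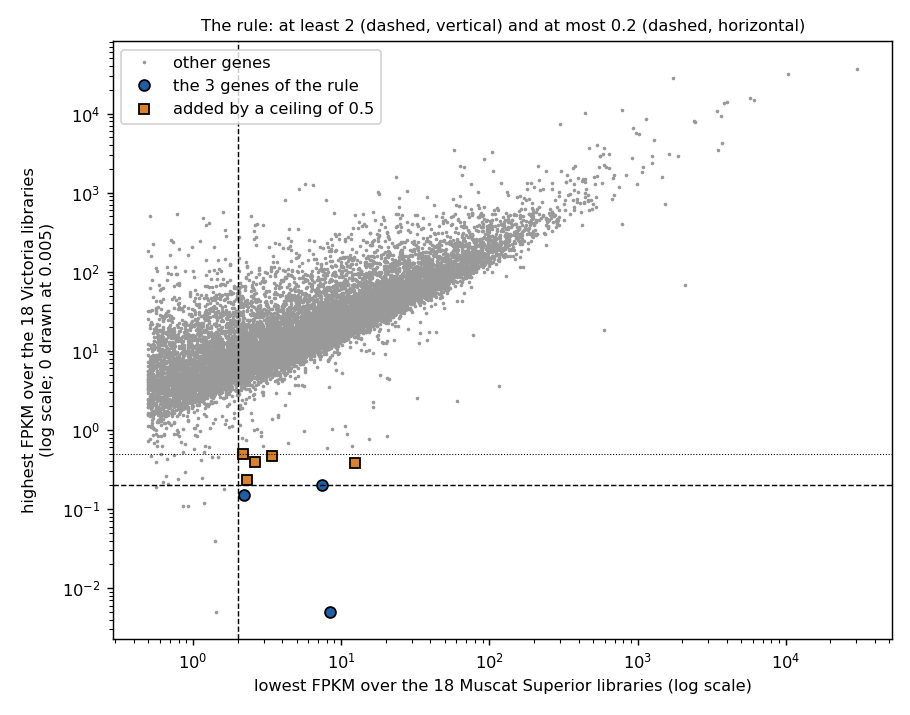
Lowest FPKM over the 18 Muscat Superior libraries (horizontal, log scale) against highest FPKM over the 18 Victoria libraries (vertical, log scale, 0 drawn at 0.005) for each gene whose lowest Muscat Superior value is at least 0.5. The 3 genes lie below the dashed ceiling of 0.2 and right of the dashed floor of 2, and 5 more lie between ceilings of 0.2 and 0.5.

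Most genes read throughout Muscat Superior were also read in Victoria. Of 11321 genes at 2 FPKM or more in all Muscat Superior libraries, 11278 (99.6%) averaged at least 1 FPKM in Victoria, and 21 had no Victoria library above 1 FPKM. Raising the ceiling to 0.5 gave 8 genes in place of 3. The added ones were VIT_200s0279g00030, VIT_203s0097g00140, VIT_212s0142g00590, VIT_214s0030g00520 and VIT_214s0036g00090. Among these, VIT_203s0097g00140 had the highest level, at 20.8 ± 5.81 FPKM in Muscat Superior and 0.151 ± 0.129 in Victoria (SD, n = 18 each). The mirrored rule, at least 2 FPKM in all Victoria libraries and at most 0.2 in all Muscat Superior libraries, also found 3 genes.

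The 3 genes differed in level and had transcripts shorter than the median. VIT_200s0346g00050 averaged 17.9 ± 5.53 FPKM (SD, n = 18), above 54.3% of the 11321 genes, whose median was 16.0. VIT_214s0066g00170 averaged 9.69 ± 1.31 FPKM, above 31.3% of them, and VIT_214s0036g00080 averaged 6.97 ± 2.86 FPKM, above 18.99% (SD, n = 18 each). The transcript lengths were 147 bases for VIT_200s0346g00050, 915 for VIT_214s0036g00080 and 1202 for VIT_214s0066g00170, against a median of 1867 for the 11321 genes, of which 0.442% were shorter than 200 bases.

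The order of the levels depends on the scale. The FPKM of the 147-base transcript was 1.29 times what its counts per kilobase give, against 1.02 for VIT_214s0036g00080, 1.01 for VIT_214s0066g00170 and a median of 0.996. In CPM, which does not correct for length, VIT_200s0346g00050 was the lowest at 2.04 ± 0.629 CPM (SD, n = 18). Its libraries held 9.78 to 38.2 expected counts each, so its values carry the largest counting error of the 3. VIT_214s0036g00080 had 22.4 to 136 counts a library and VIT_214s0066g00170 had 77 to 162.

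Read assignment also differed. VIT_214s0066g00170 had whole-number counts (within 0.005) in all 18 Muscat Superior libraries, as did 74.2% of the 11321 genes. VIT_200s0346g00050 and VIT_214s0036g00080 had whole counts in 0 of the 18, as did 11.5%. Counting programs that share out reads matching several places give fractional counts. The program used here is not named, so whether these 2 genes share reads with similar copies was not tested, and their counts are uncertain to that extent.

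By identifier, the 3 genes lay in different scaffold blocks. In these identifiers the last 2 digits before the s give the chromosome, with 00 for sequence placed on none. The digits after the s give a scaffold block, and those after the g the gene's place along the block. VIT_200s0346g00050 is on unplaced sequence, in block 0346, and the other two are on chromosome 14, in blocks 0036 and 0066, so no block holds more than 1 of the 3. Chromosome 14 holds 6.54% of the 11321 genes and unplaced sequence holds 6.25%. Of the 8 genes found with the ceiling at 0.5, 4 are on chromosome 14 and 2 on unplaced sequence. Among these 8, VIT_214s0036g00080 and VIT_214s0036g00090 are adjacent in the listed order. All 3 Victoria genes of the mirrored rule are on unplaced sequence. With so few genes these are counts, and no test was made. Genome coordinates are not given because the files name no build.

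Of the genes listed beside them, most of those read at 1 FPKM or more had similar levels in both cultivars. Up to 5 genes on each side within the same block gave 24 flanking genes, of which 14 averaged at least 1 FPKM in either cultivar. In 13 of the 14 the Muscat Superior mean was between 0.429 and 2.01 times the Victoria mean. The top of that range was VIT_200s0346g00110, in the same block as VIT_200s0346g00050. It averaged 98.1 ± 40.7 FPKM in Muscat Superior and 48.9 ± 33.7 in Victoria (SD, n = 18 each), and the libraries overlapped. VIT_214s0066g00180, next to VIT_214s0066g00170, had 48.9 ± 7.76 FPKM in Muscat Superior and 52.7 ± 14.8 in Victoria (SD, n = 18 each). VIT_214s0066g00160, on its other side, was low in both, at 0.166 ± 0.149 FPKM in Muscat Superior and 0.429 ± 0.433 in Victoria. The genes on either side of VIT_200s0346g00050 were below 1 FPKM in both cultivars. VIT_200s0346g00080, listed after it, averaged 0.905 ± 0.855 FPKM in Muscat Superior, with 0 in its lowest library, and 0.0956 ± 0.194 in Victoria, so its difference has the same direction but the libraries overlap. VIT_200s0346g00040, listed before it, averaged 0 FPKM in Muscat Superior and 0.0017 in Victoria.

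**Figure D3:**
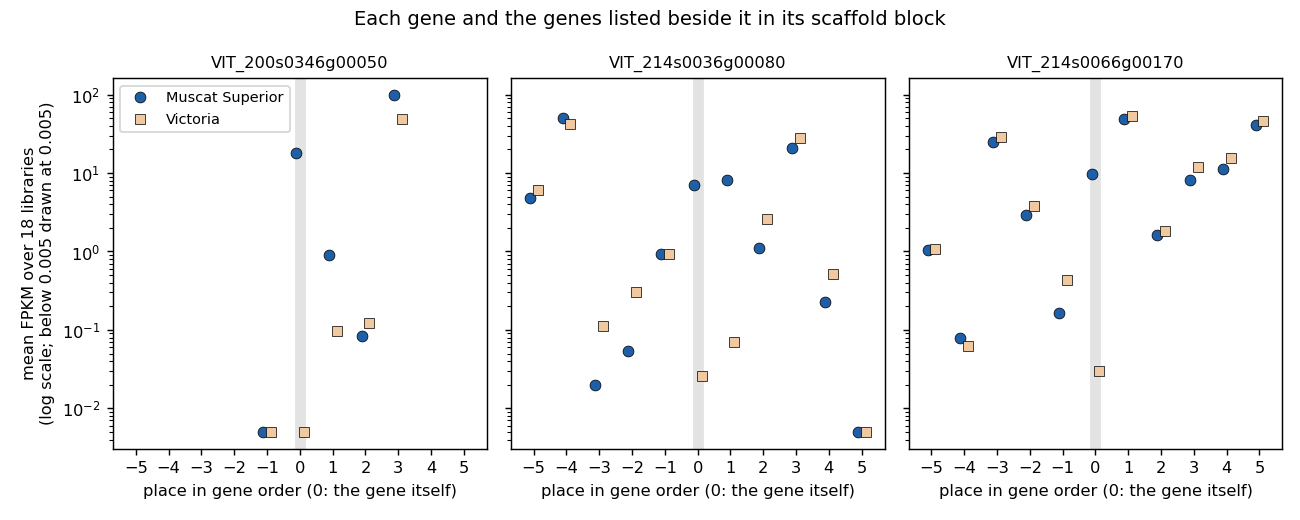
Mean FPKM over 18 libraries (log scale, values below 0.005 drawn at 0.005) of each gene (place 0) and up to 5 genes listed on each side in its block, for Muscat Superior (circles) and Victoria (squares). The symbols part widely at place 0 in each panel. At place 1 the means are 8.23 FPKM in Muscat Superior and 0.07 in Victoria beside VIT_214s0036g00080, and 0.905 in Muscat Superior and 0.0956 in Victoria beside VIT_200s0346g00050.

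Outside that range was VIT_214s0036g00090, the next gene listed after VIT_214s0036g00080, which is named here because of its values. It averaged 8.23 ± 4.38 FPKM in Muscat Superior (range 2.16 to 15.8) and 0.07 ± 0.145 in Victoria (SD, n = 18 each). It missed the rule because 4 Victoria libraries exceeded 0.2 FPKM, the highest at 0.49. Those 4 libraries held 6 reads in all, against 774 in Muscat Superior, and its counts were whole in all 18 Muscat Superior libraries. On the other side, VIT_214s0036g00070 had 0.937 ± 0.55 FPKM in Muscat Superior and 0.934 ± 0.651 in Victoria.

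Crop and stage were not used by the rule, apart from the floor of 2 FPKM, which leaves out genes switched off in any group. They were tested on counts with edgeR's quasi-likelihood test over all 36 libraries, with Benjamini-Hochberg adjustment over 19736 genes, and a gene was called at an adjusted p below 0.05. All 3 genes were tested. The question was whether the winter crop differed from the summer crop at each stage, and whether levels changed over ripening within each crop.

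VIT_214s0036g00080 differed most between crops, at intermediate sugar. At E-L 36 it had 2.21, 3.6 and 3.44 FPKM in winter berries, against 9.67, 10.6 and 9.74 in summer berries. The groups were far apart, with the highest winter library below the lowest summer one. The level fell in winter by 1.77 on the log2 scale (SE 0.28, adjusted p = 2.04e-05, edgeR), and it was called at 1.67e-11 to 4.17e-04 under all 14 alternative settings tried. At E-L 36, 42.6% of all tested genes were called and 21.6% were lower in winter, and 1 of the 3 genes was called.

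At the other stages the crops were closer for VIT_214s0036g00080. At E-L 35 it had 5.68, 6.34 and 5.68 FPKM in winter and 4.17, 5.13 and 4.47 in summer, which did not overlap, with winter higher. The log2 fold change of 0.31 (SE 0.28) had an adjusted p = 0.492 in edgeR. At E-L 38 it had 8.81, 9.01 and 6.94 FPKM in winter and 9.14, 8.49 and 12.3 in summer, which overlapped, and the log2 fold change was -0.21 (SE 0.26, adjusted p = 0.537, edgeR). The change of the crop difference between E-L 36 and E-L 35, a comparison added after the values were seen, was -2.07 (SE 0.39, adjusted p = 4.85e-04, edgeR). In that comparison 22.5% of all tested genes were called.

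Over ripening VIT_214s0036g00080 took a different course in each crop. In winter its mean was 5.9 ± 0.381 FPKM at E-L 35, 3.08 ± 0.76 at E-L 36 and 8.25 ± 1.14 at E-L 38 (SD, n = 3 each). In summer it was 4.59 ± 0.491, 10.01 ± 0.524 and 9.98 ± 2.04 FPKM at the same stages. In summer it rose, being higher at E-L 38 than at E-L 35 with a log2 fold change of 1.11 (SE 0.27, adjusted p = 0.00238, edgeR). In winter the log2 fold change was 0.59 (SE 0.27) and was not called (adjusted p = 0.0796, edgeR), although the libraries did not overlap. The difference between crops in this change, winter minus summer, was -0.52 (SE 0.38, adjusted p = 0.34, edgeR).

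Ordered from low to high, the means of VIT_214s0036g00080 ran from winter E-L 36 through summer E-L 35, winter E-L 35, winter E-L 38 and summer E-L 38 to summer E-L 36. The libraries of neighbouring groups in this order did not overlap up to winter E-L 38, while those of the last 3 groups overlapped with the next. Its highest library was 5.57 times its lowest, a wider range than in 92.5% of the 11321 genes, whose median was 2.17.

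**Figure D4:**
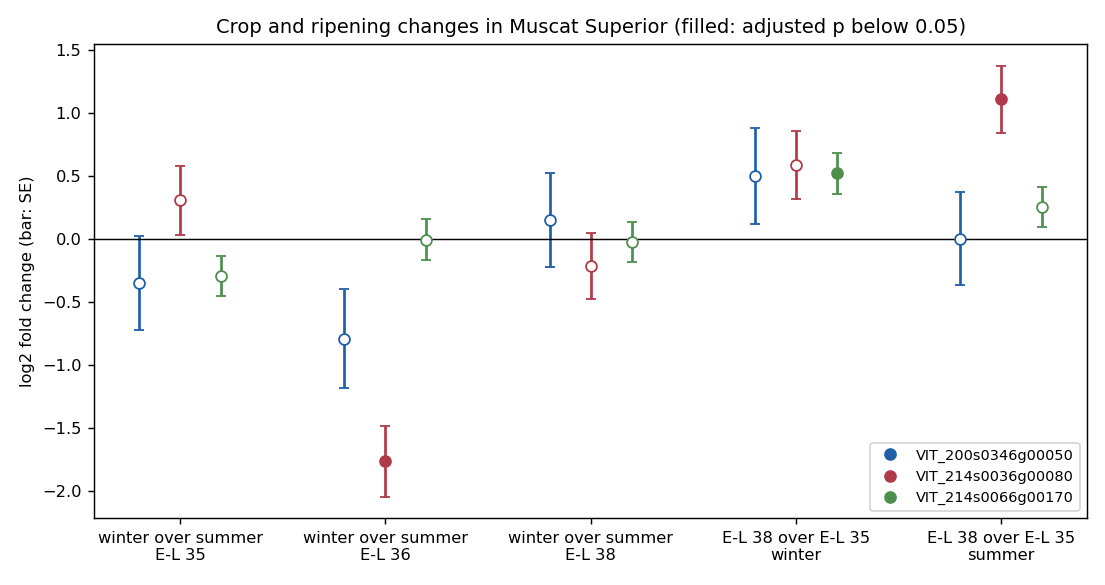
Log2 fold changes (vertical, bars: SE) of the 3 genes in Muscat Superior for winter over summer at each stage and for E-L 38 over E-L 35 in each crop; filled points were called. VIT_214s0036g00080 lies at -1.77 for the crops at E-L 36 and at 1.11 for summer ripening, and VIT_214s0066g00170 at 0.52 for winter ripening.

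The adjacent gene VIT_214s0036g00090 had the same order of group means. From low to high they were 3.36 ± 1.45 FPKM in winter E-L 36, 4.42 ± 0.608 in summer E-L 35, 6.84 ± 1.96 in winter E-L 35, 9.16 ± 1.69 in winter E-L 38, 11.1 ± 4.37 in summer E-L 38 and 14.4 ± 1.75 in summer E-L 36 (SD, n = 3 each). The libraries of neighbouring groups in this order overlapped throughout, so the full order is not resolved. At E-L 36 VIT_214s0036g00090 fell in winter by 2.17 on the log2 scale (SE 0.38, adjusted p = 8.44e-05, edgeR). It rose over ripening in summer by a log2 fold change of 1.32 (SE 0.37, adjusted p = 0.00766, edgeR), a call that was lost without replicate 3 of summer E-L 38 (1.03, adjusted p = 0.0661, edgeR) and with limma on log2(FPKM + 0.1), at 1.24 (adjusted p = 0.0738). Whether the 2 gene models are parts of 1 transcript was not tested.

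**Figure D5:**
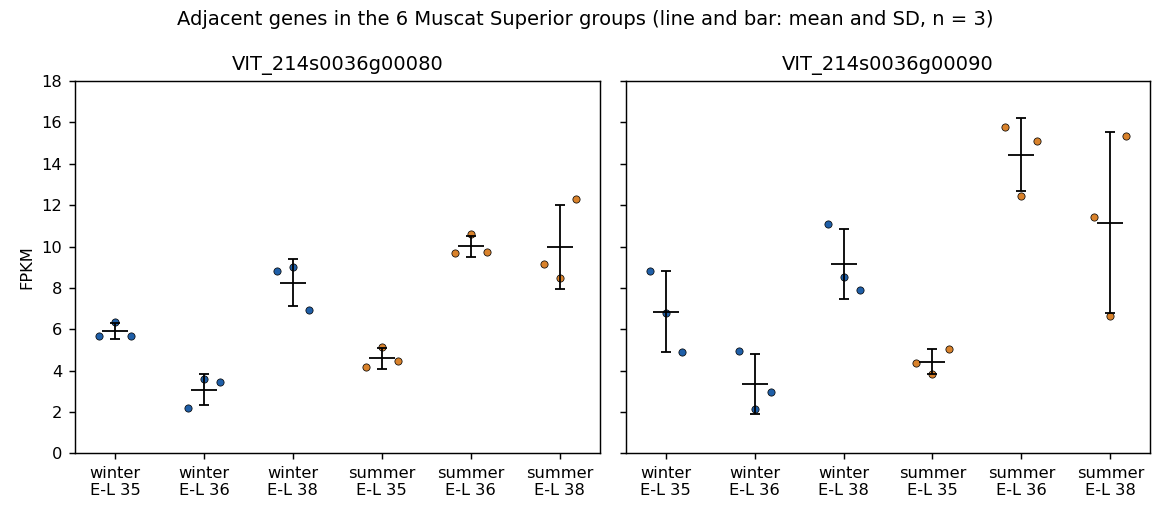
FPKM (vertical) of VIT_214s0036g00080 and the next gene listed, VIT_214s0036g00090, in the 6 Muscat Superior groups; points are libraries, the line and bar are the mean and SD (n = 3). Both are lowest in winter E-L 36, at 3.08 and 3.36 FPKM, and have their highest mean in summer E-L 36.

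VIT_214s0066g00170 was the steadiest of the 3. Its highest library was 1.68 times its lowest, a narrower range than in all but 19.1% of the 11321 genes. At E-L 36 it had 9.45, 9.09 and 9.64 FPKM in winter and 8.83, 9.17 and 8.9 in summer, which overlapped (log2 fold change -0.0042, SE 0.16, adjusted p = 0.992, edgeR). At E-L 35 it had 7.42, 8.23 and 8.49 FPKM in winter and 9.84, 9.15 and 9.6 in summer, with winter lower in every library, but the log2 fold change of -0.29 (SE 0.16) had an adjusted p = 0.229 in edgeR. At E-L 38 it had 12.4, 10.2 and 9.63 FPKM in winter and 12.3, 11.2 and 10.8 in summer, which overlapped (-0.02, SE 0.16, adjusted p = 0.918, edgeR).

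Over ripening in winter VIT_214s0066g00170 rose, with all 3 libraries at E-L 38 above all 3 at E-L 35. The log2 fold change was 0.52 (SE 0.16, adjusted p = 0.0112, edgeR). In edgeR that call was lost without replicate 1 of winter E-L 35 (log2 fold change 0.47, adjusted p = 0.0505) or replicate 1 of winter E-L 38 (0.39, adjusted p = 0.0821). It was also lost with limma on log2(FPKM + 0.1) (0.41, adjusted p = 0.0951). Summing near-identical libraries left winter E-L 35 as 1 sample, and the log2 fold change was then 0.50. That fit has no spread within winter E-L 35, so it cannot show that the call holds. In summer the libraries did not overlap either, and the log2 fold change of 0.25 (SE 0.16) had an adjusted p = 0.228 in edgeR. The difference between crops, winter minus summer, was 0.27 (SE 0.23, adjusted p = 0.416, edgeR). From low to high its group means were 8.05 ± 0.558 FPKM in winter E-L 35, 8.97 ± 0.18 in summer E-L 36, 9.39 ± 0.279 in winter E-L 36, 9.53 ± 0.35 in summer E-L 35, 10.8 ± 1.48 in winter E-L 38 and 11.4 ± 0.748 in summer E-L 38 (SD, n = 3 each). Only the lowest group was clear of the next one, and all other neighbours overlapped.

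VIT_200s0346g00050 was called in none of the 6 planned comparisons by edgeR, and its unadjusted p was above 0.05 in each. At E-L 36 it had 10.9, 11.9 and 11.4 FPKM in winter and 20.03, 17.1 and 21.0 in summer. The 3 winter libraries lay close together and below all 3 summer libraries, and the log2 fold change was -0.79 (SE 0.39, adjusted p = 0.114, edgeR). Limma called this difference on log2(FPKM + 0.1), at -0.75 with an adjusted p = 0.0295, and on log2(FPKM + 1), at -0.71 with an adjusted p = 0.0185. At E-L 35 it had 17.6, 15.8 and 14.8 FPKM in winter and 22.1, 24.0 and 13.2 in summer, which overlapped (-0.35, SE 0.38, adjusted p = 0.583, edgeR).

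At harvest ripeness VIT_200s0346g00050 varied widely between replicates. It had 21.7, 25.5 and 16.2 FPKM in winter E-L 38 and 8.47, 26.8 and 24.6 in summer E-L 38, where replicate 1 held its lowest value of all 18 libraries. The crops overlapped there (log2 fold change 0.15, SE 0.37, adjusted p = 0.776, edgeR). Over ripening the log2 fold change was 0.50 in winter (SE 0.38, adjusted p = 0.304, edgeR) and 0.0033 in summer (SE 0.37, adjusted p = 0.999, edgeR). In each crop the libraries of E-L 38 overlapped those of E-L 35. The lowest group mean was 11.4 ± 0.495 FPKM in winter E-L 36, whose libraries lay below all those of winter E-L 35, the next in order (16.1 ± 1.41). The other means lay between 19.4 and 21.1 FPKM, and neighbours in that order overlapped (SD, n = 3 each).

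Counted over the 3 genes, edgeR called 0 between crops at E-L 35, 1 at E-L 36 (lower in winter) and 0 at E-L 38, where 17.6%, 42.6% and 45.1% of all tested genes were called in either direction. Higher in winter were 9.33% of all tested genes at E-L 35 and 22.7% at E-L 38, and lower were 8.25% and 22.4%. At E-L 35 and E-L 38 the unadjusted p was below 0.05 for 0 of the 3, and DESeq2 and limma on both FPKM scales called 0 as well. Over ripening, 1 rose in winter and 1 in summer, where 46.2% and 34.1% of all tested genes were called and 22.6% and 16.4% rose. For the difference between crops in ripening, 0 were called and 0 had an unadjusted p below 0.05, against 27.1% of all tested genes called. Limma on log2(FPKM + 1) called 1 there, VIT_214s0036g00080 at -0.54 (adjusted p = 0.0286). Nothing is read from counts over 3 genes, and a comparison that was not called does not show equal levels.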

How the data were processed

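RNA was sequenced from 36 libraries in 12 groups of 3. Per the file headers, the authors deposited for each gene an expected count (estimated reads, not scaled), FPKM (scaled by the authors to transcript length and library size) and a transcript length. Per the submitters' processing notes, Bowtie was used. Version, build, annotation and counter: not given in the sources used here. A gene with no line in a table was set to 0.

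Expected counts were rounded and tested in R 4.3.3 with edgeR 4.0.16 (TMM, filterByExpr, robust quasi-likelihood test, a mean per group over all 36 libraries, 24 residual degrees of freedom). The filter kept 19736 genes. Standard errors are the log2 fold change divided by the square root of F. The procedure was tested on simulated data, where most changed genes with low counts were not called. Many changed genes with mean counts of 20 to 200 were missed as well, the range of VIT_214s0036g00080 and VIT_214s0066g00170. DESeq2 1.42.0 and limma 3.58.1 (on log2(FPKM + 0.1) and log2(FPKM + 1)) served as alternatives, with other scaling, filtering, samples and a replicate block.

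The genes, lists and comparisons were chosen with earlier results of these data known. Genes are named by level, lowest p-values, place by identifier and distance from the thresholds. Values are FPKM unless counts are named, and intervals and floors cover counting error only.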

Additional observations from a re-analysis of the deposited data

Results flagged for a closer look

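The winter-minus-summer difference of VIT_214s0036g00080 in Muscat Superior was not the same at E-L 36 and E-L 35. Every winter library lay below every summer library at E-L 36, while every winter library lay above every summer library at E-L 35. The change of the crop difference between the 2 stages was -2.07 on the log2 scale (SE 0.39, adjusted p = 4.85e-04, edgeR). It ran from -2.26 to -1.75 over 20 alternative settings. This comparison was added after the values were seen, so its p-value is no independent support. In it 22.5% of all tested genes were called. The crop difference at E-L 35 alone was not called (log2 fold change 0.31, adjusted p = 0.492, edgeR). Groups of 3 libraries are too small for a test of single outlying libraries.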

How the results depend on the processing

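The number of genes found depends on the thresholds. It was 3 as reported, 7 with a floor of 1 FPKM, 2 with a floor of 5, 1 with a ceiling of 0.1, 1 with a ceiling of 0, 8 with a ceiling of 0.5 and 0 with CPM in place of FPKM. Leaving out 1 library gave 3 or 4. Without replicate 3 of summer Muscat Superior at E-L 36 VIT_212s0034g02450 joined, and VIT_200s0279g00030 did when the summer E-L 35 library of Victoria numbered 1 was left out. Neighbours by identifier numbered 0 in all planned settings and 2 with a ceiling of 0.5, a setting added after the data were seen.

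At E-L 36, 2 genes were called between crops with limma on log2(FPKM + 0.1) and 2 on log2(FPKM + 1). For ripening in winter, 2 were called with DESeq2, on log2(FPKM + 1) and in Muscat Superior libraries alone, and 0 on log2(FPKM + 0.1). For ripening in winter, log2(FPKM + 0.1) moved the median of all genes by -0.10, and VIT_214s0066g00170 stood at 0.41 (adjusted p = 0.0951, limma). For ripening in summer, 2 were called on log2(FPKM + 1), and for its difference between crops 1. Leaving out 1 replicate gave 0 to 1 calls for ripening in winter, 1 for ripening in summer and for the crops at E-L 36, and 0 for the other 3 planned comparisons. No called change reversed its direction in any setting. In the main edgeR fit 42.6% of all tested genes were called between crops at E-L 36. For ripening 46.2% were called in winter and 34.1% in summer, and 27.1% for its difference between crops. The shares under the other settings are not given here, so nothing is read from these counts.

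Deviations of same-numbered replicates had a median correlation of 0.0094 over 45 pairs in Muscat Superior, against -0.0046 over 90 pairs of different numbers. No pairing by number was seen, but a low median cannot show that the samples were unpaired. With the replicate number as a block, 0, 1 and 0 genes were called between crops at E-L 35, 36 and 38. Over ripening 1 and 1 were called in winter and summer, and 0 for the difference. The share of all genes called with the block is not given here. Depth limits VIT_200s0346g00050 most, with 9.78 to 38.2 counts a library.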

Other observations

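A scaffold block held a pair of genes that parted the cultivars in opposite directions. In block 0279 of unplaced sequence, VIT_200s0279g00030 averaged 7.15 FPKM in Muscat Superior and 0.0128 in Victoria, while VIT_200s0279g00100, with 5 listed genes between them, averaged 0 FPKM in Muscat Superior and 139 in Victoria. These genes were picked out after their values were seen, and nothing was tested.

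VIT_214s0030g00520, the remaining chromosome 14 gene found with a ceiling of 0.5, had its lowest and highest group means at E-L 38, in winter and in summer. Its mean FPKM was 8.41 ± 0.401, 9.67 ± 0.422 and 3.88 ± 0.409 at E-L 35, 36 and 38 in winter Muscat Superior, and 8.15 ± 0.809, 9.48 ± 3.84 and 14.1 ± 0.53 in summer Muscat Superior (SD, n = 3 each). It averaged 0.2 ± 0.107 FPKM in Victoria (SD, n = 18).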
